A study of Homo sapiens with 4 samples.

Results

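The genes of the replication clamp and of the complexes that load and unload it were examined in irradiated and unirradiated pancreatic cancer cells. They were chosen by gene name, and 9 of the 58174 genes listed were taken: PCNA, RFC1, RFC2, RFC3, RFC4, RFC5, CHTF18, ATAD5 and RAD17. All 9 were found once in the table and were expressed in every library. RNA was sequenced from 2 established human lines, SW1990 and PANC-1, at passage 14 to 16, each without radiation or after a dose of 10 Gy. There was 1 library for each line at each treatment. SW1990 was grown in 1640 medium and PANC-1 in DMEM, both with fetal bovine serum, so medium and line cannot be told apart. The interval between radiation and RNA collection is not given in the sources used here. The 4 libraries held 17939210 counts for unirradiated and 18388969 for irradiated SW1990, and 23451153 for unirradiated and 20154644 for irradiated PANC-1. At these depths 3 counts, the limit at or under which a count was marked as low, amounted to between 0.139 and 0.159 CPM (counts scaled to library size). The 9 genes had at least 403 counts each. No line and treatment had a replicate, so intervals given for a single line cover counting error only.

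PCNA forms the ring that encircles DNA and tethers the replicative polymerases, the ligase and many repair enzymes to it. The ring is opened and closed by loaders that share the small subunits RFC2, RFC3, RFC4 and RFC5 and differ in the large one, and the CHTF18 loader holds DSCC1 and CHTF8 besides. RFC1 makes the canonical PCNA loader, CHTF18 the loader linked to leading strand synthesis and sister chromatid cohesion, ATAD5 the unloader that takes PCNA off DNA behind the fork, and RAD17 the loader of the 9-1-1 checkpoint clamp (RAD9, HUS1 and RAD1) at sites of DNA damage. The loaders work in replicating cells, and E2F factors are known to drive many replication genes.

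The line labels were compared with marker genes first. The keratins KRT8, KRT18 and KRT19 of epithelial cells were high in all libraries, with KRT8 at 1352, 1888, 786 and 851 FPKM (fragments scaled to transcript length and library size) in the order unirradiated SW1990, irradiated SW1990, unirradiated PANC-1 and irradiated PANC-1, which is kept below. EPCAM, an epithelial adhesion molecule, was at 217 and 218 FPKM in SW1990 but at 2.29 and 2.81 in PANC-1, and vimentin (VIM) was at 0.626 and 0 FPKM in SW1990 against 1627 and 1650 FPKM in PANC-1. Of the ductal genes, the transcription factor SOX9 was at 97.4, 54.04, 45.3 and 37.75 FPKM, the keratin KRT7 had 99, 102, 145 and 97 counts, and the chloride channel CFTR had 304 and 288 counts in SW1990 and none in PANC-1. Of the markers of other cells, the T cell gene CD3E and the islet hormones INS and GCG had no count in any library. The leukocyte genes PTPRC and CD79A had 2 and 6 counts in irradiated SW1990 only. Of the endothelial markers, VWF had 14, 50, 2 and 4 counts, CDH5 had 8 in unirradiated SW1990 only and PECAM1 2 in irradiated SW1990 only. Of the acinar markers, CEL had 30, 23, 0 and 14 counts, PRSS1 had 12 and 8 in SW1990 alone, and CPA1 had no count in any library. CD68, a lysosomal protein of macrophages, was the most abundant of the 4 leukocyte markers, with 31 and 37 counts in SW1990 and 967 and 583 in PANC-1. Of 6 fibroblast markers, COL1A2 and DCN had no count in any library, COL1A1 was the most abundant, with 103, 165, 965 and 1315 counts, COL3A1 had 80 and 77 counts in PANC-1 alone, and PDGFRB had 129 and 63 counts in SW1990. The part of such genes in the differences between the lines was not tested.

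PCNA was by far the most abundant of the 9 in each library. Its level was 187.5 and 162.6 FPKM in SW1990 and 100.5 and 132.6 FPKM in PANC-1, which placed it above 98.4%, 98.1%, 96.2% and 97.3% of the genes expressed at 1 FPKM or more in the 4 libraries. The loader subunits stood far lower, between 5.15 FPKM (ATAD5, unirradiated PANC-1) and 36.0 FPKM (RFC4, unirradiated SW1990). PCNA exceeded the lowest member of its library by 25.6, 22.4, 19.5 and 21.6 times.

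The small subunits, which every loader needs in the same number, were not at the same level. RFC4 had 36.0, 25.5, 32.8 and 30.04 FPKM. RFC2 was the steadiest, with 21.2, 20.9, 20.8 and 21.9 FPKM. RFC3 had 15.6, 18.2, 10.7 and 14.9 FPKM, and RFC5 had 24.1, 25.8, 9.33 and 14.3 FPKM. On FPKM the highest small subunit therefore exceeded the lowest by 2.30 times in unirradiated SW1990 (RFC4 over RFC3), 1.42 times in irradiated SW1990 (RFC5 over RFC3), 3.52 times in unirradiated PANC-1 and 2.10 times in irradiated PANC-1 (RFC4 over RFC5 in both). Per kilobase of annotated exons the counts gave other ratios and another order, with 1.18 (RFC4 over RFC5) and 1.87 (RFC3 over RFC4) in SW1990 and 3.16 and 2.21 (RFC2 over RFC5 in both) in PANC-1. The place of RFC4 among the small subunits therefore depends on the length used. By FPKM, neighbours whose counting intervals overlapped were RFC5, CHTF18 and RFC2 in unirradiated SW1990, RFC5, RFC4 and CHTF18 as well as RFC2 and RFC3 in irradiated SW1990, CHTF18, RAD17 and RFC1 as well as RFC3 and RFC5 in unirradiated PANC-1, and RFC2 and CHTF18 as well as RFC3, RFC5 and RFC1 in irradiated PANC-1. The order of such neighbours is not resolved by the counts, while in unirradiated PANC-1 the intervals of CHTF18 and RFC1, which are not neighbours, were apart.

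Among the large subunits, RFC1 had the highest level in SW1990 and CHTF18 in PANC-1, there apart from the next by counting interval only after irradiation. With counts per kilobase of annotated exons in place of FPKM, RFC1 remained the highest in SW1990, but RAD17 was the highest in unirradiated PANC-1 (32.8% against 22.0% for CHTF18) and RFC1 in irradiated PANC-1 (27.2% against 25.8%), so the order in PANC-1 depends on the length used. RFC1 had 27.3, 35.6, 12.4 and 13.8 FPKM, or 40.0%, 45.9%, 27.7% and 26.8% of the summed FPKM of the 4 large subunits. CHTF18 had 23.3, 24.6, 14.0 and 19.7 FPKM and a share of 34.1%, 31.7%, 31.4% and 38.2%. RAD17 had 10.4, 7.27, 13.2 and 11.9 FPKM, so that its share was 15.2% and 9.38% in SW1990 against 29.4% and 23.1% in PANC-1. ATAD5 was low in all libraries, with 7.33, 10.1, 5.15 and 6.15 FPKM, and its share lay between 10.7% and 13.0% (per kilobase of exons 16.5% and 16.8% in SW1990 and up to 20.7%, in irradiated PANC-1). The summed small subunits exceeded the summed large ones by 1.42, 1.17, 1.65 and 1.57 times. PCNA stood at 7.74, 7.19, 5.46 and 6.54 times the mean small subunit on FPKM, and at 13.2, 12.6, 9.48 and 11.6 times it per kilobase of exons.

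**Figure D1:**
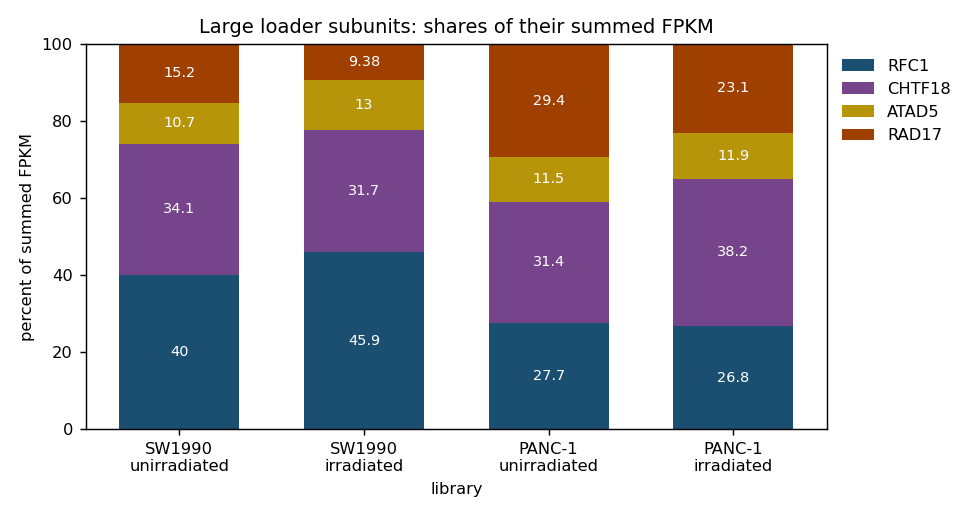
Percent of the summed FPKM of the 4 large subunits held by RFC1, CHTF18, ATAD5 and RAD17 in each library (stacked bars, no error bars since each is 1 library). RFC1 holds 40.0% and 45.9% in SW1990 and 27.7% and 26.8% in PANC-1, and RAD17 holds its smallest share, 9.38%, in irradiated SW1990.

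Several of these genes share transcribed sequence with a neighbour, and the strand setting of the counting is not given in the sources used here, so reads in the shared bases cannot be told apart. RAD17 (ENSG00000152942, chr5:69369293-69414801, plus strand) shares 380 exonic bases with TAF9 on the opposite strand, which had 1082, 1053, 2422 and 1452 counts. RAD17 also shares 210 exonic bases with AK6 on the opposite strand, which had 294, 252, 311 and 306 counts. RFC5 (ENSG00000111445, chr12:118013588-118033130, plus) shares 186 exonic bases with WSB2, which had 3509, 3230, 4036 and 3700 counts. CHTF18 (ENSG00000127586, chr16:788046-800737, plus) shares 142 with RPUSD1, which had 947, 1046, 578 and 553 counts. RFC4 (ENSG00000163918, chr3:186789880-186807058, minus) shares 21 exonic bases with EIF4A2, and 1121 with an assembled locus without a gene name on its own strand, which had 16 counts in unirradiated PANC-1 and 0 in the other libraries. RFC3 (ENSG00000133119, chr13:33818049-33966558, plus) holds AL161891.1 within its introns on the same strand, which had 324, 332, 123 and 212 counts. PCNA (ENSG00000132646, chr20:5114953-5126626, minus), RFC1 (ENSG00000035928, chr4:39287456-39366375, minus), RFC2 (ENSG00000049541, chr7:74231499-74254458, minus) and ATAD5 (ENSG00000176208, chr17:30831970-30895869, plus) share no exonic bases with a gene of over 3 counts in any library. The 7 listed pseudogenes named after these genes had no count. Coordinates are GRCh38 and equal those of GENCODE release 29 for all 9.

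The starts of these genes were searched for the E2F motif because PCNA and the loaders are replication genes, and for the p53 half-site because radiation activates p53. RefSeq windows on GRCh38.p14, from 250 bases before to 50 after the start, were available for 8 of the 9 genes (11 windows). The E2F letters were TTTCCCGC, TTTCGCGC, TTTGCCGC and TTTGGCGC on both strands, which occurred in 3.31% of all 35116 windows, and the p53 half-site occurred in 6.63%. An E2F match was present at PCNA (chr20:5126663-5126692, minus strand, match beginning at base -59) and RFC3 (chr13:33818083-33818112, plus strand, base -55), in 1 window each, and read TTTCCCGC on the strand opposite to the gene. A p53 half-site match was present at RFC3 (chr13:33818090-33818119, plus strand, base -49) and at a second, downstream start of PCNA (chr20:5120165-5120194, minus strand, base -226). They are shown on the strand of the gene, with the matched letters in capitals:
PCNA E2F: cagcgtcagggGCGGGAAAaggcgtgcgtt
RFC3 E2F: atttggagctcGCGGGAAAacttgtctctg
RFC3 p53: gctcgcgggaAAACTTGTCTctgcgttgtg
PCNA second start p53: acatatgcccGGACTTGTTCtgcggccggg
At RFC3 both matches share 2 bases. The flanks of the E2F match differ between PCNA and RFC3, while the matched letters are identical. A match describes letters and is not shown to be a bound site, and the absence of a match in the other windows says only that these letters are not in them.

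The irradiated library of each line was then compared with its unirradiated library, with counts scaled by TMM (edgeR's trimmed mean scaling) over all 4 libraries. PCNA differed in opposite directions in the lines. It had 5521 and 4879 counts (288 and 259 CPM) in SW1990, a log2 fold change of -0.15 with a 95% counting interval of -0.21 to -0.10. In PANC-1 it had 3897 and 4449 counts (180 and 227 CPM), a log2 fold change of 0.33 (0.27 to 0.40), or 1.26-fold higher after irradiation. The irradiated levels lay between the unirradiated ones, so the treatments overlap over the lines. In such bulk libraries, fewer cycling cells and less RNA per cell cannot be told apart. Such opposite intervals, lower in SW1990 and higher in PANC-1, were found for 4.91% of the 13228 genes tested in both lines.

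RFC4 was the small subunit with the largest difference in SW1990 and was lower in both irradiated libraries. It had 917 and 542 counts (47.8 and 28.8 CPM) in SW1990, 1.66-fold lower, with a log2 fold change of -0.73 (-0.89 to -0.58). In PANC-1 it had 1156 and 874 counts (53.5 and 44.7 CPM) and a log2 fold change of -0.26 (-0.39 to -0.13). Both irradiated libraries lay below both unirradiated ones. On FPKM the difference in SW1990 was smaller, at -0.50, and that in PANC-1 was -0.13. RFC4 was the only one of the 9 past 1.5-fold in SW1990, where 20.6% of 15731 genes were (9.47% on the lower side), and none was past it in PANC-1, where 21.6% of 15159 genes were. Among genes with at least as many counts in both libraries as the least counted of the 9, these shares were 5.67% in SW1990 and 8.05% in PANC-1.

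RFC3 was higher in both irradiated libraries. Its counts were 821 and 970 (42.8 and 51.5 CPM) in SW1990 and 620 and 776 (28.7 and 39.7 CPM) in PANC-1, with log2 fold changes of 0.27 (0.13 to 0.40) and 0.47 (0.31 to 0.62). The treatments overlap over the lines, since irradiated PANC-1 lay below unirradiated SW1990. RFC5 had 845 and 769 counts (44.1 and 40.8 CPM) in SW1990 and 403 and 483 (18.7 and 24.7 CPM) in PANC-1, with log2 fold changes of -0.11 (-0.25 to 0.03) and 0.40 (0.21 to 0.60), and with total counts the interval in SW1990 also excluded no change (-0.32 to -0.03). RFC2 had 625 and 652 counts (32.6 and 34.6 CPM) in SW1990 and 867 and 727 (40.1 and 37.2 CPM) in PANC-1, and both of its intervals held no change. Within the shared core, RFC3 was thus higher and RFC4 lower after irradiation in both lines.

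Of the large subunits, RFC1 was higher after irradiation in SW1990, with 2512 and 3068 counts (131 and 163 CPM) and a log2 fold change of 0.31 (0.24 to 0.39). In PANC-1 it had 1405 and 1206 counts (65.1 and 61.6 CPM) and a log2 fold change of -0.08 (-0.19 to 0.03). CHTF18 showed the reverse arrangement. It had 1221 and 1109 counts (63.7 and 58.9 CPM) in SW1990, with a log2 fold change of -0.11 (-0.23 to 0.01), and 895 and 1006 counts (41.4 and 51.4 CPM) in PANC-1, with 0.31 (0.18 to 0.44). With TMM within each pair (-0.14, from -0.26 to -0.03) or total counts (-0.17, from -0.29 to -0.06), the interval of CHTF18 in SW1990 lay below no change, opposite to PANC-1.

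ATAD5, the PCNA unloader, was higher in both irradiated libraries, in SW1990 only narrowly. It had 994 and 1082 counts (51.8 and 57.4 CPM) in SW1990 and 729 and 968 counts (33.8 and 49.5 CPM) in PANC-1, with log2 fold changes of 0.15 (0.02 to 0.27) and 0.55 (0.41 to 0.69). The interval in SW1990 held no change with TMM within each pair (-0.01 to 0.24) or total counts (-0.04 to 0.21). On FPKM the order of the lines turned, with 0.46 in SW1990 and 0.25 in PANC-1. RAD17, the checkpoint clamp loader, was lower in both irradiated libraries, with 551 and 466 counts (28.7 and 24.7 CPM) in SW1990 and 939 and 722 counts (43.5 and 36.9 CPM) in PANC-1, and log2 fold changes of -0.22 (-0.40 to -0.04) and -0.24 (-0.38 to -0.09). On FPKM RAD17 was at -0.51 in SW1990 and -0.15 in PANC-1. The treatments overlap over the lines for both genes. TAF9, which overlaps RAD17 on the opposite strand, was lower in irradiated PANC-1 as well, with 1452 against 2422 counts, and its part in the RAD17 values was not tested.

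Counted by interval, 3 of the 9 genes were higher (RFC1, RFC3 and ATAD5) and 3 lower (PCNA, RFC4 and RAD17) in irradiated SW1990, where the interval excluded no change for 48.6% of 15731 genes (28.3% higher and 20.3% lower). In irradiated PANC-1, 5 were higher (PCNA, RFC3, RFC5, CHTF18 and ATAD5) and 2 lower (RFC4 and RAD17), where it did so for 56.2% of 15159 genes (27.1% higher and 29.2% lower). Well counted genes have narrow intervals, and among genes with at least as many counts in both libraries as the least counted of the 9 these shares were 61.9% in SW1990 and 69.1% in PANC-1, so the counts are near what other genes showed. The median log2 fold change of the 9 was -0.11 in SW1990, beside 0.03 over all genes tested, and 0.31 in PANC-1, beside 0.00 (-0.0045). On FPKM the sign was opposite for RFC2, RFC5 and CHTF18 in SW1990 (-0.02, 0.10 and 0.08) and for RFC1 and RFC2 in PANC-1 (0.16 and 0.07), all of them genes whose counting interval held no change. None of the 9 was past 2-fold, as 9.54% of genes in SW1990 and 9.14% in PANC-1 were. In both lines RFC3 and ATAD5 were higher (11.2% of 13228 genes) and RFC4 and RAD17 lower (8.77%).

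The lines served as the only replication of the irradiation contrast in a fit of all 4 libraries with edgeR's quasi-likelihood test, cell line as a covariate and Benjamini-Hochberg adjustment over 18180 genes. None of the 9 genes passed an adjusted p of 0.05 and none had an unadjusted p under it. RFC4 came nearest, with a log2 fold change of -0.50 over both lines (adjusted p = 0.936 by edgeR), followed by RFC3 at 0.37 (adjusted p = 0.936) and ATAD5 at 0.35 (adjusted p = 0.936). RAD17 was at -0.23 (adjusted p = 0.937), and PCNA at 0.09 (adjusted p = 0.972). The background was 0 of 18180 genes (0.0%), with 832 at an unadjusted p under 0.05. DESeq2 called 39 genes and limma on log2 FPKM called 0, none of the 9 by either. The fit had 1 residual degree of freedom, and with 1 library per line and treatment no gene's response in a single line could be tested.

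The responses of both lines were set against each other as the SW1990 log2 fold change minus that of PANC-1. The interval from the counts excluded 0 for 6 of the 9 genes, where it did so for 52.1% of 13173 genes. The difference was -0.49 (-0.57 to -0.40) for PCNA, -0.51 (-0.75 to -0.28) for RFC5, -0.47 (-0.67 to -0.27) for RFC4, -0.42 (-0.60 to -0.25) for CHTF18 and -0.40 (-0.59 to -0.22) for ATAD5, and 0.39 (0.26 to 0.53) for RFC1. RFC1 thus stood alone among these 6 in a response that was more positive in SW1990. The intervals of RFC3 (-0.20, from -0.40 to 0.00), RFC2 (0.20, from -0.01 to 0.41) and RAD17 (0.02, from -0.21 to 0.25) reached or crossed 0. On FPKM the sign turned for ATAD5, to 0.21, and for RFC2 and RAD17, to -0.09 and -0.37. A model with this term has no residual degrees of freedom, so the difference was not tested against variation between cultures.

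SW1990 was compared with PANC-1 over both treatments in the same fit, with irradiation as a covariate. The treatments served as the only replication of each line, with 1 residual degree of freedom, so variation between cultures was not measured. RFC1 and RFC5 were higher in SW1990 and RAD17 was higher in PANC-1. These 3 of the 9 passed the edgeR quasi-likelihood test, where 43.5% of 18180 genes did (21.5% higher in SW1990 and 22.0% higher in PANC-1). RFC1 was at 131 and 163 CPM in SW1990 against 65.1 and 61.6 CPM in PANC-1, 2.31 times higher (log2 fold change 1.21, edgeR adjusted p = 0.00649). RFC5 was at 44.1 and 40.8 CPM against 18.7 and 24.7 CPM, 1.98 times higher (0.98, edgeR adjusted p = 0.0201). For both, each SW1990 library lay above each PANC-1 library. RAD17 was at 28.7 and 24.7 CPM against 43.5 and 36.9 CPM, or 1.5 times higher in PANC-1 (log2 fold change -0.59, edgeR adjusted p = 0.0428), also without overlap. This call was lost with total counts (edgeR adjusted p = 0.102) and with DESeq2 (adjusted p = 0.135). TAF9, which overlaps RAD17 on the opposite strand, also had more counts in PANC-1 (2422 and 1452) than in SW1990 (1082 and 1053). Its part in the RAD17 difference between the lines was not tested.

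The other 6 genes did not pass in the line contrast. RFC3 (log2 fold change 0.48, edgeR adjusted p = 0.073), PCNA (0.43, adjusted p = 0.106), ATAD5 (0.42, adjusted p = 0.123) and CHTF18 (0.41, adjusted p = 0.128) were on the side of SW1990, and RFC4 (-0.40, adjusted p = 0.155) and RFC2 (-0.20, adjusted p = 0.376) on that of PANC-1. Within single treatments, 6 of the 9 were past 1.5-fold between the unirradiated libraries, where 60.5% of 16626 genes were, and 3 between the irradiated libraries, where 59.9% of 16819 genes were. Among genes with at least as many counts in both libraries as the least counted of the 9, these shares were 41.3% and 39.4%. RFC5 went from a log2 difference of 1.24 between the unirradiated libraries to 0.73 between the irradiated ones, and PCNA from 0.67 to 0.19. CHTF18 went from 0.62 to 0.20 and ATAD5 from 0.62 to 0.22, although on FPKM ATAD5 went from 0.51 to 0.72. RFC1 went away from 0, from 1.01 to 1.40, as did RFC4, from -0.16 to -0.63, and RFC3 went from 0.58 to 0.38. On FPKM the sign of RFC4 turned, from 0.13 to -0.24. These values rest on the same 4 libraries as the irradiation comparisons and are no separate evidence.

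On scaled counts, the gene nearest to PCNA over the 4 libraries was CHTF18. By Euclidean distance of centred log2 CPM among 7315 genes with at least 5 FPKM in every library, CHTF18 lay at 0.0398, followed by WDR4 (0.0582), PSMD1 (0.0637), FP565260.6 (0.0736) and MID1 (0.0744). The other loader genes were further from PCNA, with ATAD5 at rank 307, RFC3 at 557, RFC5 at 2306, RFC2 at 3507, RFC1 at 4450, RFC4 at 5042 and RAD17 at 5372. The counting interval of the CHTF18 log2 fold change in SW1990 (-0.23 to 0.01) was wide beside the nearest distances, so its first place is not resolved. On FPKM CHTF18 was at 0.08 and PCNA at -0.21 in SW1990, and at 0.49 and 0.40 in PANC-1. With 4 libraries of 2 lines and 2 treatments, the ranking describes the libraries and nothing was tested.

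The clamp and loader genes were set beside the genes they work with, as the number of tested genes with an interval above or below no change. These counts are to be read beside the same over all genes, which was 28.3% higher and 20.3% lower in SW1990 and 27.1% higher and 29.2% lower in PANC-1. With markers of p53 activity and proliferation included, 0 of 80 listed genes passed the edgeR fit of irradiation over both lines, 6 had an unadjusted p under 0.05 there (BIRC5, FDXR, MDM2, POLH, TOP2A and ZMAT3), as had 4.58% of all genes, and DESeq2 and limma called 0. The 6 became 3 with DESeq2 and 0 without cell line as a covariate. Of the 9-1-1 clamp that RAD17 loads, taken with its binding partners RHNO1 and TOPBP1, 1 of 6 genes was higher (RHNO1) and 2 lower (HUS1 and TOPBP1) in irradiated SW1990, and 3 (RAD9A, HUS1B and RAD1) higher and 0 lower in PANC-1, beside these shares. HUS1, a ring subunit, had 777 and 662 counts in SW1990 and 940 and 827 in PANC-1, a log2 fold change of -0.21 and -0.04. RHNO1, which binds the ring, was at 0.39 and 0.00 (-0.0044), and HUS1B at 0.03 and 0.99 with 15 to 27 counts a library. The other ring subunits, named after their values were seen, were at -0.13 and 0.18 (RAD1) and at -0.20 and 0.34 (RAD9A), beside -0.22 and -0.24 for RAD17.

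Among the CTF18 partners and genes of cohesion establishment, 0 of 8 were higher and 3 lower in SW1990, and 5 higher and 1 lower in PANC-1, with medians of -0.09 and 0.38, beside 28.3% of all genes higher and 20.3% lower in SW1990 and 27.1% and 29.2% in PANC-1. DSCC1, the subunit that joins CHTF18, had 528 and 526 counts in SW1990 and 206 and 325 in PANC-1, a log2 fold change of 0.02 and 0.80 beside -0.11 and 0.31 for CHTF18. ESCO2, a cohesin acetyltransferase, was at 0.01 and 0.66, and its relative ESCO1 was lower in both lines, at -0.22 and -0.44. In the line contrast DSCC1, ESCO1 and ESCO2 were higher in SW1990 by edgeR, 3 of the 8, where 21.5% of all genes were, and 0 were higher in PANC-1 (22.0%). Of 12 replicative polymerase genes, 2 were higher in SW1990 and 3 in PANC-1, and of 7 Okazaki fragment genes 2 and 0. For 13 ubiquitination and bypass genes these counts were 0 and 3, for 14 other PCNA-binding proteins 4 and 1, and for 7 genes of the 9-1-1 list 0 and 1. They were 4 and 0 for 12 p53 targets and 2 and 2 for 8 proliferation markers.

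The enzymes that work on the clamp were counted next, beside 28.3% of all genes higher and 20.3% lower in SW1990 and 27.1% higher and 29.2% lower in PANC-1. Of 12 polymerase genes, 2 were higher and 3 lower in SW1990 (median 0.03) and 7 higher and 1 lower in PANC-1 (median 0.21). PRIM1, the catalytic primase subunit, had 636 and 420 counts in SW1990 (-0.57) and 510 and 463 in PANC-1 (0.00, or 0.0032). PRIM2 was at 0.14 and 0.43, and POLD4, a small subunit of polymerase delta, at 0.45 and 0.11, with intervals that held no change in either line. Of 7 Okazaki fragment genes, 1 was higher and 3 lower in SW1990 and 5 higher and 2 lower in PANC-1. FEN1, the flap endonuclease that PCNA stimulates, had 2316 and 2345 counts in SW1990 (0.04) and 1891 and 2678 in PANC-1 (0.64), RNASEH2B was at -0.29 and -0.24, and RNASEH2C at 0.13 and 0.47.

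The genes of PCNA ubiquitination and lesion bypass were near the share of all genes in SW1990 (28.3% higher and 20.3% lower), with 4 of 13 higher and 4 lower in SW1990 and 2 higher and 3 lower in PANC-1 (27.1% and 29.2% of all genes), and medians of -0.07 and 0.01. POLH, the bypass polymerase for ultraviolet lesions, was at 0.57 and 0.38. SHPRH, a PCNA ubiquitin ligase, was at -0.25 and -0.41, and POLI, another bypass polymerase, at -0.85 in SW1990 with 134 and 73 counts and 0.37 in PANC-1. Of 14 other PCNA-binding proteins, 6 were higher and 0 lower in SW1990, and 5 higher and 5 lower in PANC-1, beside the same shares of all genes. CDKN1A (p21), the inhibitor of cyclin dependent kinases that binds PCNA, had 1229 and 4002 counts in SW1990 and 1282 and 782 in PANC-1, a log2 fold change of 1.73 and -0.57, the reverse of the PCNA signs of -0.15 and 0.33. DNMT1, the maintenance methyltransferase, was at 0.25 and 0.24, and CDT1, the licensing factor destroyed on PCNA, at 0.12 and 0.48. UNG, KMT5A and ERCC5, named after their values were seen, were also higher in irradiated SW1990 and lower in irradiated PANC-1 by interval, at 0.95 and -0.92 for UNG, 0.56 and -0.62 for KMT5A and 0.37 and -0.19 for ERCC5, as were 8.48% of the 13228 genes tested in both lines.

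Markers of proliferation were counted in the same way, since clamp genes are expressed in dividing cells. Of 8 markers, 5 were higher and 3 lower in irradiated SW1990 and 6 higher and 1 lower in PANC-1, beside 28.3% of all genes higher and 20.3% lower in SW1990 and 27.1% and 29.2% in PANC-1. Their medians were 0.18 and 0.33, beside -0.11 and 0.31 for the clamp and loaders. BIRC5 was at 0.52 and 0.76, CDK1 at 0.26 and 0.53 and TOP2A at 0.38 and 0.37. MKI67, named after its values were seen, was lower in both lines, at -0.11 and -0.20, and MCM2 and TYMS, named likewise, were lower in SW1990, at -0.08 and -0.11, and higher in PANC-1, at 0.41 and 0.08. The part of proliferation in the PCNA and loader values was not tested.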

How the data were processed

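In the deposited table, each of 59263 rows holds the counts and the FPKM of all 4 libraries. The submitters' processing notes name CASAVA 1.8, FastQC 0.11.2, Trimmomatic 0.36, HISAT2 2.0, StringTie 1.3.3b, DESeq2 1.12.4 and GRCh38. The tool that made the deposited counts is not given in the sources used here. The labels name an mRNA library kit and also describe the RNA as depleted of rRNA. The deposited FPKM values were used to compare levels between genes, since they are scaled for transcript length and library size, and the deposited counts, which were not normalized, for all fold changes. FPKM depends on the transcripts that StringTie assigned in each library, so a gene's fold change on FPKM can differ from that on counts. The 1089 rows that name no gene held between 0.453% and 0.635% of the counts and entered neither the library sizes nor any test, except in 1 alternative.

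Counts were scaled by TMM (edgeR 4.0.16, R 4.3.3) over the 4 libraries, on genes that reached an FPKM of 1 in any of them. Log2 fold changes between 2 libraries have exact Clopper-Pearson intervals at 95%, which cover counting error only, as do the intervals of levels. The background was every gene that reached this FPKM in either library of a pair. For irradiation over both lines and for SW1990 against PANC-1, edgeR's quasi-likelihood test (glmQLFit, glmQLFTest, filterByExpr) was fitted to all 4 libraries with line and irradiation as terms and was tested on simulated data, with Benjamini-Hochberg adjustment. As the lines or treatments stand in for replicates, p-values set a contrast against the residual of this fit. That residual has 1 degree of freedom, is moderated by the spread over all genes and does not measure variation between cultures. Alternatives used total counts, DESeq2 1.42.0 size factors and its Wald test, TMM within each pair, rows that name no gene kept, no filter, limma 3.58.1 on log2(FPKM + 0.1), FPKM and counts per kilobase of exons.

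The 9 genes and the lists beside them were chosen with earlier results of these data known, and the lists support nothing independently. From each list, genes past 2-fold in either line and the up to 3 with the largest mean log2 fold change over both lines were named, and exceptions are stated. The set of promoter windows used here held none for ATAD5, so that gene was not searched.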

Additional observations from a re-analysis of the deposited data

Results flagged for a closer look

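PCNA was marked because the irradiated library differed from the unirradiated one in opposite directions in the lines, with a log2 fold change of -0.15 in SW1990 and 0.33 in PANC-1. The difference of these responses, SW1990 minus PANC-1, was -0.4864 with a counting interval of -0.57 to -0.40. The difference was not tested, as each line and treatment had 1 library. It was -0.63 with total counts and -0.61 on FPKM.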

How the results depend on the processing

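The number of the 9 genes with an interval excluding no change was 6 in SW1990 and 7 in PANC-1. On FPKM the numbers were also 6 and 7, but in PANC-1 RFC4 was at -0.13 and RFC1 at 0.16 there. On counts these were -0.26 and -0.08. In PANC-1 the same 7 genes passed under every other scaling and filter of the counts. In SW1990 ATAD5 was lost and CHTF18 gained with TMM within pairs, and ATAD5 was lost and CHTF18 and RFC5 gained with total counts (7 genes), while 5 were shared. The count for the difference of responses was 6, and 7 with total counts, DESeq2 size factors or TMM within pairs, and 8 on FPKM, set against the width of the counting interval. In the fit of irradiation over both lines 0 of the 9 passed under every alternative run. In the line contrast 3 passed, and 2 with the DESeq2 Wald test, without the filter or with limma, where RAD17 was lost (adjusted p of 0.135, 0.0774 and 0.0987). With total counts RAD17 was lost (adjusted p = 0.102) and RFC3 passed (adjusted p = 0.0476), a scaling that moved the median of all genes between the unirradiated lines by 0.21. The difference of responses of ATAD5 was -0.40 on counts and 0.2076 on FPKM. With counts per kilobase of exons in place of FPKM, the share of RFC1 was 43.8%, 50.2%, 30.3% and 27.2%, and PCNA over the mean small subunit was 13.2, 12.6, 9.48 and 11.6, in the order of libraries above; exon lengths of all annotated transcripts replace those of the transcripts assembled, and SW1990 stayed above PANC-1 in both. For ATAD5 in SW1990 the ratio of counts to FPKM implied a length of 7.60 kb without and 5.86 kb after radiation, and for RFC4 1.43 and 1.16 kb, so FPKM and counts differ there; the cause was not tested. Leaving out a library was not possible, as each line and treatment had 1. The labels give no replicate numbers; cell line as a covariate pairs the treatments, and 0 of the 9 also passed without it.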

Other observations

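The p53 targets were counted beside the clamp genes. Of 12 tested in SW1990, 11 were higher by interval and 0 lower in the irradiated library (median log2 fold change 0.65), where 28.3% of all genes were higher and 20.3% lower, and of 11 tested in PANC-1, 3 were higher and 3 lower (median -0.11), where 27.1% of all genes were higher and 29.2% lower. BTG2, an antiproliferative gene, had 51 and 525 counts in SW1990 and 32 and 12 in PANC-1. BBC3, the proapoptotic PUMA, was at 1.199 and -0.77, GDF15, a secreted stress factor, at 0.38 and -1.10, and FDXR, a mitochondrial reductase, at 0.58 and 0.67. None of the p53 targets passed the edgeR fit of irradiation over both lines, and the difference between the lines was not tested.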
